A study of Mus musculus with 9 samples.

Results

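The genes described here run the synthesis of cholesterol and fatty acids, the sterol sensing that sets it, and the export of surplus sterol. There were 36 of them, listed by symbol and matched to Ensembl identifiers in a raw count table of 21159 mouse genes. A member was used where it had at least 10 raw counts in 3 or more of the 9 libraries. All 36 were in the table, and 35 met that rule and were tested among 11196 genes. The remaining one, Fads2, a fatty acid desaturase, had raw counts of 12, 2 and 0 in Runx2ko, 4, 0 and 2 in Runx2wt and 16, 7 and 5 in BM progenitor libraries and was not tested.

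The series measured RNA in mouse marrow cells by QuantSeq, a kit that sequences a tag near the 3′ end of each transcript, in 3 groups of 3 libraries. All groups came from lineage-depleted marrow of Runx2fl/fl CreErt2tg/+ animals, in which 4-hydroxytamoxifen (4-OHT) lets a Cre recombinase, whose promoter the labels do not name, cut both floxed Runx2 alleles. Serum at 10% and the cytokines IL-3, IL-6 and stem cell factor are named for these cultures. Runx2ko cells were transformed with a retrovirus carrying the leukaemia fusion KMT2A-MLLT1 (MLL-ENL) and eGFP and then given 400 nM 4-OHT for 24 h. Runx2wt cells were transformed in the same way and given ethanol. BM progenitor cells were untreated, and their RNA was taken from methylcellulose before the first replating, whereas transformed cells had been replated every 7 days and then grown in suspension. The fusion therefore cannot be told apart from passage and culture form, nor the loss of Runx2 from exposure to 4-OHT and active Cre. Whether the BM progenitor cells already carried the virus is not clear from the labels, and the extraction notes speak of T-ALL cells although these are marrow cultures.

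Libraries held 3118594 to 5348177 counts, and levels are given as CPM, counts scaled to library size after TMM normalisation. Runx2 itself had 21.0, 120.1 and 135 CPM in the Runx2ko, 159, 179 and 131 CPM in the Runx2wt and 53.3, 46.7 and 58.8 CPM in the BM progenitor libraries, so the groups labelled Runx2ko and Runx2wt overlapped. A 3′ tag may lie outside the deleted exon, which the labels do not name, and these values therefore do not check the deletion. Among the transformed libraries, Runx2ko replicate 1 differed most. On the log2 CPM scale it correlated with the other transformed libraries at r = 0.793 to 0.816, where those libraries correlated with each other at 0.934 to 0.959. It was also the only Runx2ko library with less Runx2 than every BM progenitor library. Fits without it keep the Runx2ko libraries with 120.1 and 135 CPM of Runx2. Where leaving it out changed which members passed, that is stated. Tests were edgeR quasi-likelihood tests with Benjamini-Hochberg adjustment over all genes tested, called at an adjusted p under 0.05, and the fold changes are on the log2 scale. Fewer cells of one type and less RNA per cell cannot be told apart in such bulk libraries.

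Cholesterol is built from acetyl-CoA through mevalonate and isoprenoid diphosphates to squalene, and then through lanosterol to the finished sterol. SREBP factors switch on these genes. They sit in the endoplasmic reticulum bound to the escort SCAP, and INSIG proteins hold that complex back while sterols are plentiful. Oxysterols in turn activate the nuclear receptor LXR, which raises the exporters ABCA1 and ABCG1 that macrophages use to unload sterol.

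In transformed Runx2wt cells, 6 of the 18 enzymes of mevalonate and sterol synthesis fell against BM progenitor cells, and 2 of the 5 transport and LXR genes rose. Of the 35 members, 2 rose and 9 fell in Runx2wt against BM progenitor cells. Over all genes tested, 13.5% were called, 8.28% higher and 5.23% lower. The members that rose were Abca1 and Mylip, and those that fell were Acat2, Hmgcs1, Mvk, Lss, Cyp51, Msmo1, Scap, Acaca and Elovl6. All 3 Runx2wt libraries lay below all 3 BM progenitor libraries for 21 members, where 24.5% of all genes tested did so, and above them for 4, where 24.8% did so (49.3% in either direction). An unadjusted p under 0.05 was found for 21 members, against 31.8% of all genes. The log2 fold change was below 0 for 24 members (49.3% of all genes tested), and its median was -0.59 over the members and 0.01 over all genes tested. With scaling by total counts alone, the called genes split into 739 higher and 724 lower in place of 927 and 586.

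The number of members called rested on the libraries used. It was 20 of 35 without Runx2ko replicate 1, whose spread entered the shared estimate, with 28% of all genes called in that fit. The 9 members gained there were Pmvk, Mvd, Idi1, Fdft1, Sqle, Nsdhl, Hsd17b7 and Stard4, which fell, and Abcg1, which rose, at adjusted p-values of 0.0126 to 0.0462 from edgeR. It was 13 without Runx2ko replicate 2 and 16 without Runx2ko replicate 3, with 13.5% and 17.5% of all genes called. It came to 8, 3 and 4 without Runx2wt replicate 1, 2 or 3, with 7.63%, 3.44% and 7.18% of all genes called. It came to 2, 1 and 1 without BM progenitor replicate 1, 2 or 3, with 2.87%, 2.29% and 1.82% of all genes called. Abca1 was called in each of these 9 fits, and every other called member was lost in at least 1 of them.

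Among the 7 members that lead from acetyl-CoA to farnesyl diphosphate, 3 fell in Runx2wt cells (5.23% of all genes tested fell). Hmgcs1, the synthase that makes HMG-CoA, had 301, 124 and 191 CPM in the Runx2ko, 143, 109 and 107 CPM in the Runx2wt and 309, 329 and 376 CPM in the BM progenitor libraries. All Runx2wt libraries were below all BM progenitor libraries, and Runx2ko replicate 1 was nearly at the BM progenitor level (log2 fold change -1.49, SE 0.29, adjusted p = 0.0143 for Runx2wt against BM progenitor cells). Acat2, the cytosolic thiolase at the head of the route, had 63.1, 40.7 and 48.0 CPM in the Runx2ko, 84.3, 40.2 and 41.2 CPM in the Runx2wt and 151, 129 and 135 CPM in the BM progenitor libraries. Both transformed groups lay below the progenitors for it (log2 fold change -1.32, SE 0.30, adjusted p = 0.0233 for Runx2wt). A similar 3′ end in Acat3, which had at most 0.547 CPM in any library, makes the assignment of its reads uncertain.

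Mvk, mevalonate kinase, had 18.4, 23.0 and 30.6 CPM in the Runx2ko, 23.1, 17.2 and 13.4 CPM in the Runx2wt and 39.4, 29.7 and 35.04 CPM in the BM progenitor libraries. Its fall in Runx2wt cells was just past the threshold (log2 fold change -0.95, SE 0.27, adjusted p = 0.0485). Of the other 4, Pmvk and Mvd, the next kinase and the decarboxylase of the route, and the isomerase Idi1 were each lower in all Runx2wt libraries but did not pass, with log2 fold changes of -0.72, -0.66 and -1.61 and adjusted p-values of 0.0778, 0.121 and 0.108 from edgeR. Without Runx2ko replicate 1 they passed, at adjusted p-values of 0.0299, 0.0238 and 0.0462. Idi1 was scarce, at most 4.25 CPM. Fdps, farnesyl diphosphate synthase, had overlapping groups (log2 fold change 0.13). Idi1 and Fdps have several genes with near-identical 3′ ends, so their counts are uncertain.

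Of the 11 enzymes from squalene synthase to the last sterol steps, 3 fell in Runx2wt cells (5.23% of all genes tested fell). Cyp51, the lanosterol demethylase, had 190.2, 66.4 and 79.1 CPM in the Runx2ko, 76.8, 57.9 and 74.3 CPM in the Runx2wt and 166, 179 and 226 CPM in the BM progenitor libraries. The Runx2wt libraries were all below the progenitors (log2 fold change -1.45, SE 0.36, adjusted p = 0.0336), and Runx2ko replicate 1 was as high as a progenitor library. Msmo1, a methyl oxidase that acts further down the route, had 185, 126 and 169 CPM in the Runx2ko, 139, 100.3 and 91.8 CPM in the Runx2wt and 194, 206 and 264 CPM in the BM progenitor libraries. The Runx2wt and progenitor libraries did not overlap for it either (log2 fold change -1.01, SE 0.22, adjusted p = 0.0216). Lss, which closes squalene epoxide into lanosterol, had 20.7, 12.9 and 18.2 CPM in the Runx2ko, 14.7, 8.87 and 8.90 CPM in the Runx2wt and 23.2, 20.8 and 32.7 CPM in the BM progenitor libraries, also with Runx2wt below the progenitors throughout (log2 fold change -1.23, SE 0.31, adjusted p = 0.0348).

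Sqle, squalene epoxidase, missed the threshold (log2 fold change -0.66, SE 0.19, adjusted p = 0.0501) with all Runx2wt libraries lower. Nsdhl, Hsd17b7 and Fdft1, which act in lanosterol demethylation, in the reduction of its intermediates and in squalene synthesis, had log2 fold changes of -1.06, -0.88 and -0.93 without passing, at adjusted p-values of 0.0680, 0.0752 and 0.0672 from edgeR. Without Runx2ko replicate 1 Sqle and these 3 passed, at adjusted p-values up to 0.0361. The last 500 annotated bases of Fdft1 lie wholly within Ctsb on the opposite strand, and the strand setting of the counting is not stated, so Fdft1 is uncertain. Cyp51 likewise shares 166 bases with Akap9 on the opposite strand. The late enzymes Ebp, Sc5d and Dhcr7 were between -0.13 and 0.02, with overlapping groups. Tm7sf2, a sterol reductase, had all Runx2wt libraries higher (log2 fold change 0.91, SE 0.67, adjusted p = 0.378). It shares 532 exon bases with Vps51 on the same strand and a 3′ stretch of 79 identical bases, so its counts are uncertain.

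Summed over these 18 enzymes, the level in CPM was 1166, 853 and 1165 in Runx2ko, 1002, 801 and 802 in Runx2wt and 1555, 1540.3 and 1746 in BM progenitor libraries. The Runx2wt sums were all lower than the BM progenitor sums, and the Runx2ko sums lay between the lowest Runx2wt and the lowest BM progenitor sum. The median log2 fold change of the 18 in Runx2wt against BM progenitor cells was -0.90. Markers of granulocytes and of dividing cells were also lower in Runx2wt than in BM progenitor libraries, with values given further on, and their part in this was not tested.

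**Figure D1:**
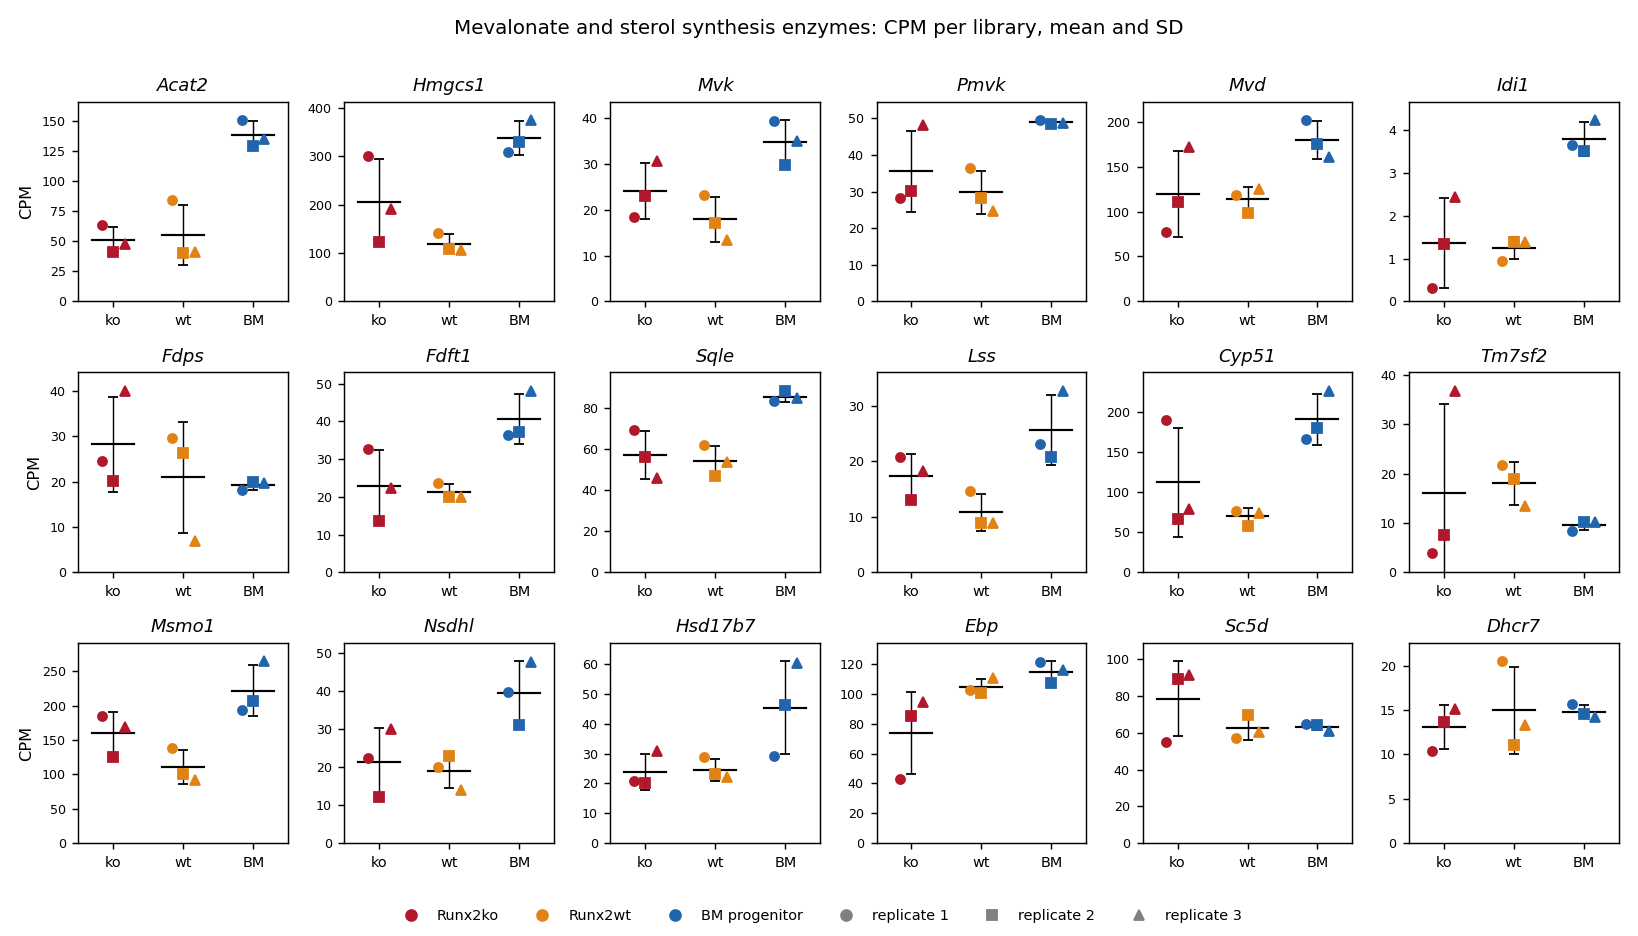
Levels in CPM of the 7 mevalonate and 11 sterol synthesis enzymes in each library, by group from left Runx2ko, Runx2wt and BM progenitor; points are libraries, the horizontal line is the mean and the bar is 1 SD, cut at 0. The Runx2wt points lie below all BM progenitor points for 13 of the 18 enzymes, and the Runx2ko points spread more widely than the Runx2wt points for Hmgcs1 and Cyp51.

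RefSeq promoter windows, from 250 bases before to 50 bases after the start on GRCm38.p6, were at hand for 28 members; their last 50 bases are transcribed. They were searched on both strands for a sterol regulatory element spelled TCACNCCAC, which SREBP binds, for CCAAT, the site of its partner NF-Y, and for GGTNA repeated on the same strand after a gap of 5 bases, the form of direct repeat that LXR binds. Matches of different motifs did not overlap in these windows. CCAAT stood in the windows of 21 of the 28 members, against 41.1% of 27025 genes, and in all 9 sterol enzymes with a window. The sterol element matched in Hmgcs1 alone among the members, against 1.44% of genes. The window of Hmgcs1 is shown because it holds both. That of Cyp51 is shown because the gene fell by a similar amount with CCAAT and no match to TCACNCCAC. Sterol elements of other spelling were not searched for, so a window without a match may still hold one. Capitals mark every match (ATTGG is CCAAT on the other strand).
Hmgcs1 (chr13:119690101-119690400, plus strand): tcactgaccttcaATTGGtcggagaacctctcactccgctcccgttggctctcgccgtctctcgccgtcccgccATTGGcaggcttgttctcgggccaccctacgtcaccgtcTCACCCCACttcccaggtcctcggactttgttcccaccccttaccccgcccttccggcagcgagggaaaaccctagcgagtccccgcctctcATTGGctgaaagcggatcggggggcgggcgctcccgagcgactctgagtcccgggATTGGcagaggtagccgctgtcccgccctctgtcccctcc
Cyp51 (chr5:4104648-4104947, minus strand): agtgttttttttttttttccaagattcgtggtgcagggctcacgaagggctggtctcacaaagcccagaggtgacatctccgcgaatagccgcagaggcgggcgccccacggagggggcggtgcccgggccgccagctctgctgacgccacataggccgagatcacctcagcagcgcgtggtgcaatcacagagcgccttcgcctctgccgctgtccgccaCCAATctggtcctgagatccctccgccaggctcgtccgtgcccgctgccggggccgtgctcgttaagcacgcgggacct
The sterol element of Hmgcs1 reads TCACCCCAC and starts 137 bases before the RefSeq start. A match describes the letters and not a bound site.

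Of the 5 SREBP control genes, Scap fell in Runx2wt cells (5.23% of all genes tested fell). It had 70.8, 79.0 and 57.2 CPM in the Runx2ko, 56.4, 53.5 and 51.2 CPM in the Runx2wt and 82.7, 83.4 and 89.2 CPM in the BM progenitor libraries, lowest in Runx2wt and highest in the progenitors without overlap (log2 fold change -0.66, SE 0.16, adjusted p = 0.0319 for Runx2wt against BM progenitor cells). Srebf2, the SREBP that mainly drives sterol genes, had 167, 116 and 95.1 CPM in the Runx2ko, 99.7, 81.8 and 97.7 CPM in the Runx2wt and 142, 134 and 110.2 CPM in the BM progenitor libraries. The Runx2wt libraries lay below the progenitors but the test did not pass (log2 fold change -0.47, SE 0.22, adjusted p = 0.178).

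Srebf1, which mainly drives fatty acid genes, had 50.5, 39.0 and 81.0 CPM in the Runx2ko, 64.0, 43.5 and 58.1 CPM in the Runx2wt and 39.0, 47.2 and 52.2 CPM in the BM progenitor libraries. The groups overlapped, with a log2 fold change of 0.26, and 109 bases of its 3′ end are shared with Rai1 on the opposite strand. Insig1, itself an SREBP target, had 33.3, 27.0 and 37.7 CPM in the Runx2ko, 30.5, 28.3 and 15.6 CPM in the Runx2wt and 40.9, 45.6 and 37.6 CPM in the BM progenitor libraries. Runx2wt libraries were lower throughout without passing (log2 fold change -0.73, SE 0.26, adjusted p = 0.0908). Insig2, its relative, overlapped between groups with a log2 fold change of 0.20.

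Of the 5 transport and LXR members, Abca1 and Mylip rose and none fell in Runx2wt cells (8.28% of all genes tested rose and 5.23% fell). Abca1, the exporter that loads sterol onto apolipoprotein A-I, had 8.41, 27.0 and 43.4 CPM in the Runx2ko, 30.5, 18.8 and 51.2 CPM in the Runx2wt and 0.182, 0.270 and 1.91 CPM in the BM progenitor libraries. The progenitor values rest on 1, 1 and 9 raw counts. Each transformed library was above each progenitor library (log2 fold change 5.35, SE 0.87, adjusted p = 0.00747 for Runx2wt). With limma-voom the log2 fold change was 5.69 and did not pass (adjusted p = 0.0557), and the other 18 alternatives passed. Mylip, a ubiquitin ligase that LXR induces and that sends lipoprotein receptors for degradation, had 15.5, 20.4 and 46.1 CPM in the Runx2ko, 32.6, 20.2 and 16.4 CPM in the Runx2wt and 2.55, 5.13 and 4.46 CPM in the BM progenitor libraries. The transformed libraries were again all higher (log2 fold change 2.52, SE 0.49, adjusted p = 0.0142 for Runx2wt).

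Abcg1, the partner exporter to HDL, had 39.8, 43.0 and 83.7 CPM in the Runx2ko, 61.7, 29.4 and 83.5 CPM in the Runx2wt and 16.8, 20.2 and 27.4 CPM in the BM progenitor libraries. Runx2wt libraries were all above the progenitors, at the edge of the threshold (log2 fold change 1.44, SE 0.42, adjusted p = 0.0501), and the test passed without Runx2ko replicate 1 (adjusted p = 0.0147, edgeR). A similar 3′ end elsewhere (1700016L21Rik) makes its read assignment uncertain. Nr1h2, which encodes LXR-beta, had 57.3, 35.97 and 42.0 CPM in the Runx2ko, 42.0, 52.4 and 50.4 CPM in the Runx2wt and 42.9, 28.6 and 34.0 CPM in the BM progenitor libraries. Its groups overlapped (log2 fold change 0.45, SE 0.23, adjusted p = 0.210). Stard4, a carrier that moves sterol inside the cell and is an SREBP target, was lower in all Runx2wt libraries without passing (log2 fold change -0.57, SE 0.19, adjusted p = 0.0720), and it passed without Runx2ko replicate 1 (adjusted p = 0.0394, edgeR).

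Summed markers of monocytes and macrophages, 11 genes, were 508, 4086 and 8144 in Runx2ko, 4419, 5892 and 11888 in Runx2wt and 4305, 3124 and 4060.1 in BM progenitor libraries, in CPM, and none was at 0 in all libraries of a group. In each comparison with BM progenitor cells 2 of the 11 rose and 2 fell, against 13.5% (Runx2wt) and 17.2% (Runx2ko) of all genes called. Among the transformed libraries the sum was lowest in Runx2ko replicate 1 and highest in Runx2wt replicate 3, which also had the lowest and the highest Abca1. Mylip was low in both of these libraries, and Runx2wt replicate 2 had less Abca1 than Runx2wt replicate 1 beside a higher sum. The part of monocytic cells in the rise of Abca1 and Mylip was not tested.

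**Figure D2:**
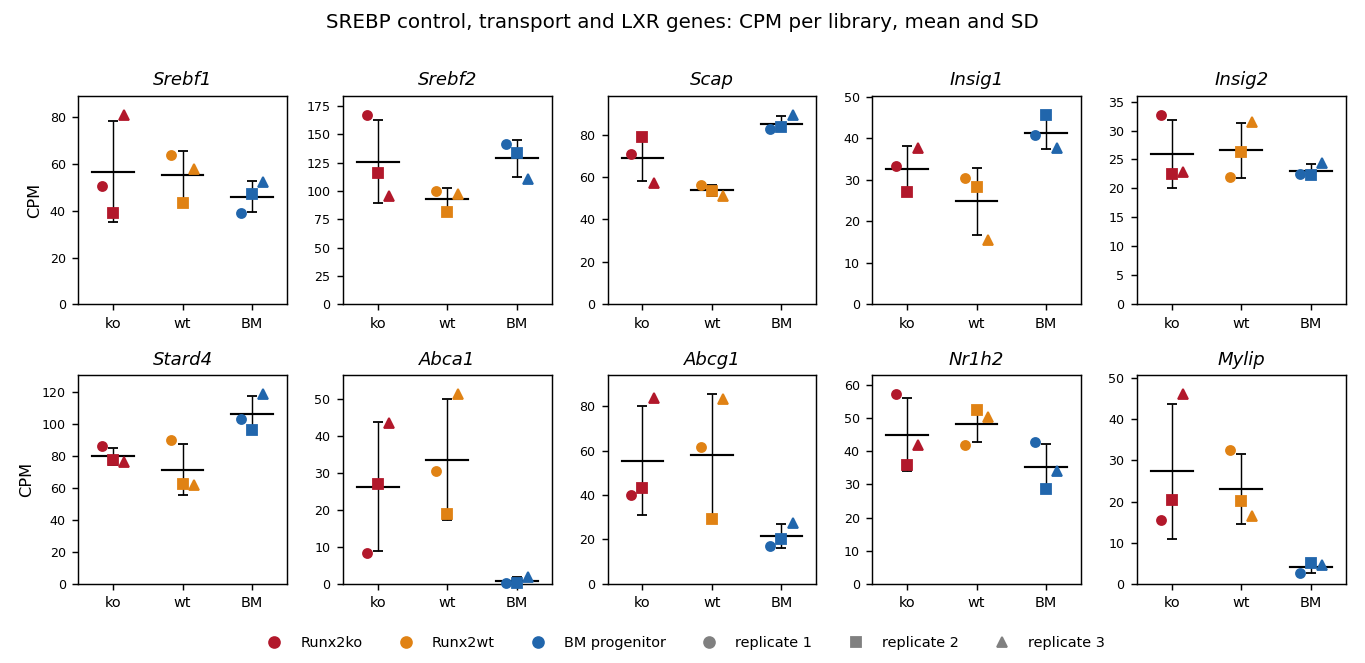
Levels in CPM of the 5 SREBP control genes (upper row) and the 5 transport and LXR genes (lower row) in each library, by group from left Runx2ko, Runx2wt and BM progenitor; points are libraries, the line is the mean and the bar is 1 SD, cut at 0. Abca1 and Mylip are higher in all 6 transformed libraries than in the 3 BM progenitor libraries, and Scap is lowest in Runx2wt.

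The LXR motif matched in 3 members with a window, Abca1, Srebf1 and Fasn, against 0.818% of all genes. The windows of Abca1 and Fasn hold the same letters, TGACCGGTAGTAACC, which match on the opposite strand, 67 and 225 bases before the start, and are shown together because Abca1 rose and Fasn did not pass the test. Mylip is shown as the other riser, with CCAAT on the opposite strand and no LXR match in this window. Capitals mark matches to the LXR motif and to CCAAT.
Abca1 (chr4:53159846-53160145, minus strand): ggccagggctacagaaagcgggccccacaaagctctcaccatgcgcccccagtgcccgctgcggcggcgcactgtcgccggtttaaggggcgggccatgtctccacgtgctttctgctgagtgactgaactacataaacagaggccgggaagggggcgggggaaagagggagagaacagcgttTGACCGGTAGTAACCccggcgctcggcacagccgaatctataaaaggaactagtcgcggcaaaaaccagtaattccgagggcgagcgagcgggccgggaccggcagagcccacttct
Fasn (chr11:120824498-120824797, minus strand): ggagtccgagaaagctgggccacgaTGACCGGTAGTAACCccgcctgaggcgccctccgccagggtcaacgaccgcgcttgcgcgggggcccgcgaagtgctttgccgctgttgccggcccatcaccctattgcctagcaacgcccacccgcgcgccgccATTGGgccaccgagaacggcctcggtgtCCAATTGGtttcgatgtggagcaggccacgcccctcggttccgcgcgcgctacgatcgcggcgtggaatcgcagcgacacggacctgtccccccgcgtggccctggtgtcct
Mylip (chr13:45389492-45389791, plus strand): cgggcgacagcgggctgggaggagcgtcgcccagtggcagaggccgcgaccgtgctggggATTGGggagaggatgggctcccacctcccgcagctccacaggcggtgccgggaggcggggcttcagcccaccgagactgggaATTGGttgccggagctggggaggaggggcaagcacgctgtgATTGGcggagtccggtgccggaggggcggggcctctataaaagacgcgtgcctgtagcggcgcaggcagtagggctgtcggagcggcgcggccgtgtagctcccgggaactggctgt
In Fasn a CCAAT on each strand overlaps the other as CCAATTGG.

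Of the 7 fatty acid genes tested, 2 fell in Runx2wt cells (5.23% of all genes tested fell). Elovl6, which elongates saturated fatty acids, had 48.2, 56.5 and 30.6 CPM in the Runx2ko, 21.3, 26.9 and 31.2 CPM in the Runx2wt and 61.7, 61.8 and 82.2 CPM in the BM progenitor libraries. Runx2wt had the lowest mean and did not overlap the progenitors (log2 fold change -1.38, SE 0.26, adjusted p = 0.0135). Acaca, the carboxylase that makes malonyl-CoA, had 38.5, 37.1 and 35.2 CPM in the Runx2ko, 33.9, 33.0 and 36.2 CPM in the Runx2wt and 53.5, 47.5 and 54.2 CPM in the BM progenitor libraries. Both transformed groups were tight and below the progenitors (log2 fold change -0.59, SE 0.16, adjusted p = 0.0379 for Runx2wt). For both genes a look-alike 3′ end elsewhere (Gm11295 and Gm5182) makes the read assignment uncertain.

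Fasn, the fatty acid synthase, had 377, 501 and 608 CPM in the Runx2ko, 575, 488 and 389 CPM in the Runx2wt and 474, 515 and 427 CPM in the BM progenitor libraries. The groups overlapped and the log2 fold change in Runx2wt was 0.04 with an SE of 0.21. Acly, which supplies cytosolic acetyl-CoA, was lower in each Runx2wt library without passing (log2 fold change -0.31, SE 0.17, adjusted p = 0.230). Fads1, a desaturase, likewise did not pass (log2 fold change -0.71, SE 0.46, adjusted p = 0.314). The stearoyl-CoA desaturases Scd1 and Scd2 were at log2 fold changes of -0.13 and 0.04 in Runx2wt against BM progenitor cells, with overlapping groups.

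**Figure D3:**
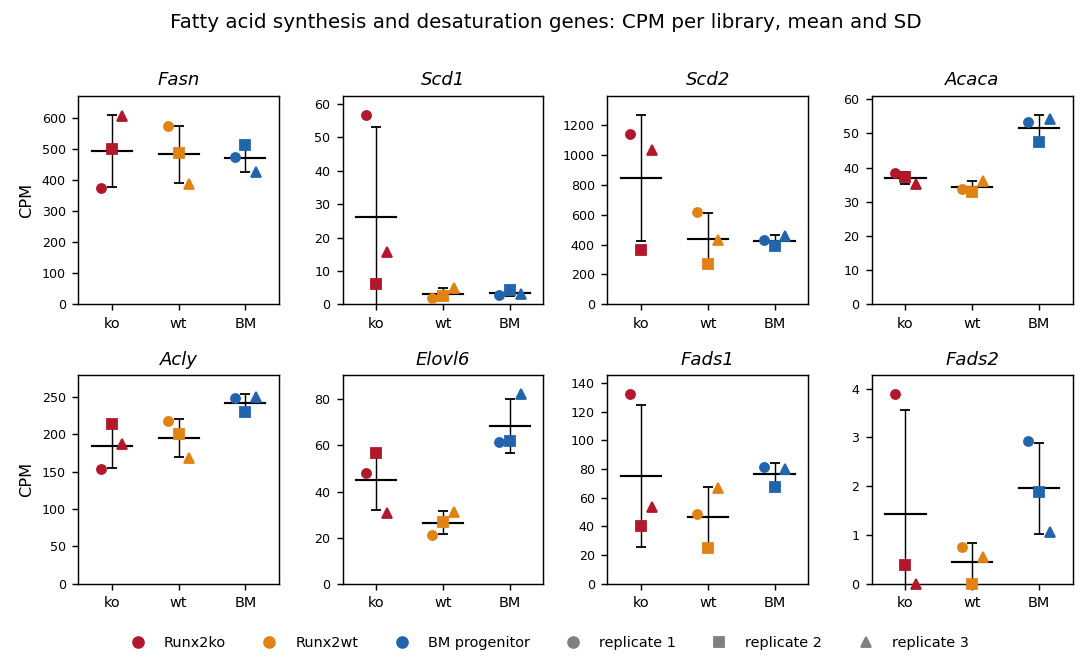
Levels in CPM of the 8 fatty acid members in each library, by group from left Runx2ko, Runx2wt and BM progenitor; points are libraries, the line is the mean and the bar is 1 SD, cut at 0. Scd1 is higher in all 3 Runx2ko libraries than in any other library, Acaca is lower in all 6 transformed libraries than in the 3 BM progenitor libraries, and Fads2 stays under 4 CPM throughout.

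In Runx2ko cells Abca1 and Mylip rose as well, and 1 of the 18 mevalonate and sterol enzymes, Acat2, fell. Against BM progenitor cells 3 of 35 members rose and 1 fell, where 17.2% of all genes were called, 10.0% higher and 7.14% lower. The genes that rose were Abca1 (log2 fold change 5.0, SE 0.86, adjusted p = 0.00811), Mylip (log2 fold change 2.76, SE 0.49, adjusted p = 0.00924) and Scd1 (log2 fold change 2.93, SE 0.76, adjusted p = 0.0310), and the gene that fell was Acat2 (log2 fold change -1.45, SE 0.30, adjusted p = 0.0150). All Runx2ko libraries lay above the progenitors for 5 members (19.5% of all genes) and below them for 15 (18.8% of all genes; 38.4% in either direction). An unadjusted p under 0.05 was found for 16 members (33.5% of all genes), and 23 had a log2 fold change below 0 (46.2% of all genes). The median log2 fold change was -0.39 over the members and 0.07 over all genes, and -0.58 over the 18 enzymes. Scaling by total counts split the called genes into 936 higher and 923 lower in place of 1125 and 799.

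Without Runx2ko replicate 1, 10 members were called, 5 in each direction, with 28.5% of all genes called. Hmgcs1, Cyp51, Fdft1 and Sqle then also fell, at log2 fold changes of -1.11, -1.39, -1.19 and -0.75, against -0.72, -0.77, -0.84 and -0.58 with it, and Abcg1 and Sc5d rose, at 1.55 and 0.51. Leaving out a BM progenitor library left 2, 2 and 1 members called, with 4.32%, 3.73% and 3.53% of all genes called, and Abca1 was called in every fit that left out 1 library. Leaving out any of the other 5 transformed libraries left 4 or 5, with 11% to 15.6% of all genes called. The comparisons of Runx2ko and of Runx2wt with BM progenitor cells share the 3 BM progenitor libraries.

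Between Runx2ko and Runx2wt cells, the comparison aimed at Runx2 itself, no member passed by edgeR, nor did any of the 11196 genes. At an unadjusted p under 0.05 there were 5 members, all higher in Runx2ko, where 7.91% of all genes had such a p. DESeq2 called 1 member, Scd1, and 46 genes. All Runx2ko libraries lay above all Runx2wt libraries for 2 members, Scap and Scd1, and below them for 1, Ebp, where 4.95% and 4.73% of all genes did so, 9.68% in either direction. The log2 fold change was below 0 for 10 members (48.6% of all genes), with a median of 0.17 over the members and 0.01 over all genes. A p that misses the threshold does not show equal levels: the SE of the 35 differences was between 0.16 and 0.77 on the log2 scale.

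Scd1, the desaturase that makes oleate from stearate and a target of both SREBP-1 and LXR, had 56.6, 6.09 and 15.7 CPM in the Runx2ko, 1.88, 2.49 and 5.01 CPM in the Runx2wt and 2.74, 4.32 and 3.19 CPM in the BM progenitor libraries. The Runx2ko counts were 175, 32 and 58, against 10, 9 and 18 in Runx2wt and 15, 16 and 15 in BM progenitor libraries. Replicate 1 set most of the mean, and the other Runx2ko libraries were still above every other library (log2 fold change 3.06, SE 0.77, adjusted p = 0.579 against Runx2wt). Without replicate 1 the log2 fold change was 1.80 against Runx2wt (adjusted p = 0.422) and 1.66 against BM progenitor cells (adjusted p = 0.0428, edgeR). The call against BM progenitor cells held in 12 of 19 alternatives. It was lost without BM progenitor replicate 1, 2 or 3, with limma-voom, with limma on the deposited normalized values, with only the 2 groups compared and with the replicate number as a block, at adjusted p-values of 0.0537 to 0.142 and log2 fold changes of 2.19 to 3.11. Mast cell and erythroid markers were also highest in Runx2ko replicate 1, and their part in the Scd1 level was not tested.

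Scd2, the related desaturase, had 1139, 361 and 1033 CPM in the Runx2ko, 618, 267 and 429 CPM in the Runx2wt and 428, 389.8 and 460.2 CPM in the BM progenitor libraries. High values in Runx2ko replicates 1 and 3 stood beside an overlapping replicate 2 (log2 fold change 0.94, SE 0.41, unadjusted p = 0.0459, adjusted p = 0.614, edgeR). Elovl6, Hmgcs1 and Msmo1 were the other members with an unadjusted p under 0.05 in Runx2ko against Runx2wt cells, at log2 fold changes of 0.78, 0.77 and 0.54 (adjusted p = 0.579, 0.580 and 0.599, edgeR). Without Runx2ko replicate 1 these were 0.74, 0.39 and 0.41, and Scd2 was 0.67.

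The Runx2ko libraries differed among themselves. Replicate 3 lay above the Runx2wt range for 21 of the 35 members and below it for 2, while over all genes tested it was above for 26.9% and below for 29.8%. Replicate 1 was above for 16 and below for 11 (35.4% and 34.7% of all genes), and replicate 2 above for 6 and below for 7 (25.3% and 24.8%). The median SD of log2 CPM over the members was 0.417 in Runx2ko, 0.282 in Runx2wt and 0.153 in BM progenitor libraries, and over all genes 0.432, 0.289 and 0.195.

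**Figure D4:**
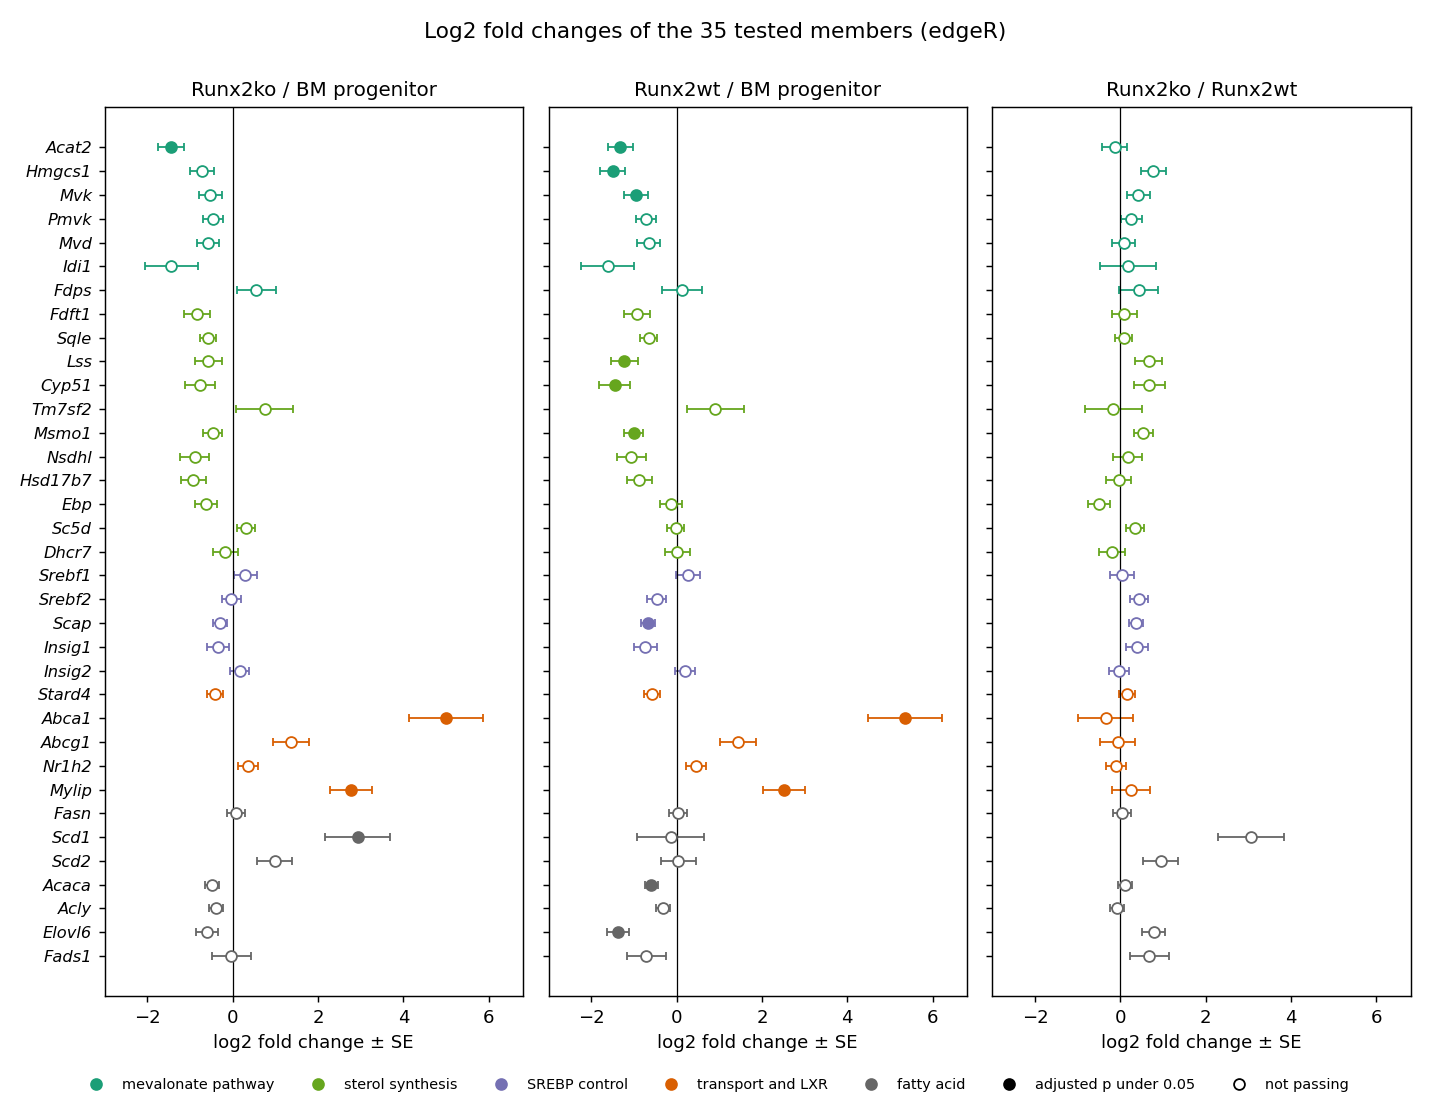
Log2 fold changes (edgeR, bar 1 SE) of the 35 tested members in Runx2ko over BM progenitor, Runx2wt over BM progenitor and Runx2ko over Runx2wt; colours give the role, filled points have an adjusted p under 0.05. Abca1 and Mylip lie far to the right in both comparisons with progenitors. Of the 18 mevalonate and sterol enzymes, 15 lie left of 0 in each of these comparisons. No point is filled in Runx2ko over Runx2wt.

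Other genes of lipid metabolism were taken as whole lists that hold none of the members; Aacs, Elovl5, Gpam, Hsd17b12 and Lpin1 each stand in 2 of them. The numbers given are of genes tested. Over all genes tested, 13.5% were called in Runx2wt and 17.2% in Runx2ko against BM progenitor cells. An unadjusted p under 0.05 was found for 31.8% and 33.5% of all genes in these comparisons. Of 16 other sterol synthesis and regulation genes, none passed in Runx2wt against BM progenitor cells (4 had an unadjusted p under 0.05). The most abundant of them, Cyb5b, a cytochrome b5 that passes electrons to membrane enzymes, had 245, 188 and 203 CPM in Runx2wt and 273, 276 and 306 CPM in BM progenitor libraries (adjusted p = 0.195, edgeR). In Runx2ko cells 2 of the 16 rose, Mbtps1 and Mbtps2, the proteases that cut SREBP free (0.64 and 0.72 on the log2 scale, adjusted p = 0.0182 and 0.0400). Of 14 other SREBP targets, Aldoc, a glycolytic aldolase, rose and Tmem97, a sterol-responsive membrane protein, fell in Runx2wt (log2 fold change 3.32, SE 0.27, adjusted p = 0.000448 and log2 fold change -1.17, SE 0.25, adjusted p = 0.0210). Tmem97 had 44.6, 62.0 and 37.9 CPM in the Runx2ko, 71.3, 39.9 and 46.7 CPM in the Runx2wt and 123, 111 and 122 CPM in the BM progenitor libraries, below the progenitors in both transformed groups. In Runx2ko cells 2 of the 14 rose and 2 fell.

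Of 15 trafficking and esterification genes, 2 rose in Runx2wt and 3 in Runx2ko cells, and none fell. Of all genes, 13.5% and 17.2% were called in these comparisons, and 8.28% and 10.0% of all genes were called higher. Npc1, which releases cholesterol from lysosomes, had 63.1, 115 and 114 CPM in the Runx2ko, 98.0, 100.05 and 197 CPM in the Runx2wt and 47.1, 37.5 and 33.3 CPM in the BM progenitor libraries (log2 fold change 1.74, SE 0.34, adjusted p = 0.0138 for Runx2wt). Ch25h, which makes the LXR ligand 25-hydroxycholesterol, had 2.26, 7.04 and 2.98 CPM in the Runx2ko and 8.66, 2.49 and 35.9 CPM in the Runx2wt libraries and no count in any progenitor library (adjusted p = 0.0350 for Runx2ko and 0.0179 for Runx2wt, edgeR). Replicate 3 held most of the Runx2wt level. The third gene in Runx2ko was Soat2, a sterol acyltransferase (log2 fold change 2.1, SE 0.48, adjusted p = 0.0204).

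Of 8 LXR and RXR partners and targets, 1 rose and 1 fell in Runx2wt, where 13.5% of all genes were called. In Runx2ko 3 rose and 1 fell, where 17.2% of all genes were called. The gene that rose in Runx2wt was the corepressor Ncor1 (log2 fold change 0.56, SE 0.16, adjusted p = 0.0455). Of 16 genes of the isoprenoid branch, Rabggta, a subunit of the enzyme that prenylates Rab proteins, rose in Runx2wt (log2 fold change 0.96, SE 0.27, adjusted p = 0.0460), and 1 rose and 1 fell in Runx2ko. Of 22 elongation and glycerolipid genes, 3 rose in Runx2wt, namely Agpat3, an acyltransferase, and the dehydratases Hacd4 and Hacd1 (3.43, 1.81 and 1.00 on the log2 scale, adjusted p = 0.0121, 0.0167 and 0.0155), and 2 rose in Runx2ko. Of 17 fatty acid oxidation genes, Cpt1a, which carries fatty acids into mitochondria, rose in Runx2wt (log2 fold change 0.87, SE 0.17, adjusted p = 0.0150). None of the 17 passed in Runx2ko, and 3 had an unadjusted p under 0.05, against 33.5% of all genes. No gene of these lists passed between Runx2ko and Runx2wt cells by edgeR. In each list 0 to 2 genes had an unadjusted p under 0.05, against 7.91% of all genes.

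Markers of the cell types that such cultures can hold differed between groups or between single libraries of a group. Their part in the results above was not tested. Against BM progenitor cells, 8.28% of all genes tested were called higher and 5.23% lower in Runx2wt, and 10.0% and 7.14% in Runx2ko. In CPM, summed neutrophil granule markers, 11 genes, were 893, 6039 and 10566 in Runx2ko, 2412, 4457 and 1627 in Runx2wt and 16409.8, 14732 and 12099 in BM progenitor libraries, and 3 of 11 fell in each comparison with BM progenitor cells. Eosinophil markers, 8 genes, summed to 18.1, 8.75 and 10.8 in Runx2ko, 4.52, 2.49 and 3.62 in Runx2wt and 1814, 1839 and 1377 in BM progenitor libraries, and 7 of 8 fell in both. Epx, Ear1, Ear2 and Ccr3 had no count in any Runx2wt library. Mast cell and basophil markers, 13 genes, summed to 4120.2, 92.9 and 606 in Runx2ko, 112, 194 and 371 in Runx2wt and 1314, 1152 and 1281 in BM progenitor libraries. Of the 11 tested, 1 rose and 4 fell in Runx2wt and 2 rose in Runx2ko against BM progenitor cells. Tpsb2, Tpsab1 and Mcpt4 were at 0 in all progenitor libraries and Tpsab1 in all Runx2wt libraries. Erythroid markers, 7 genes, summed to 821, 22.3 and 33.3 in Runx2ko, 2.82, 48.8 and 56.2 in Runx2wt and 27.9, 22.9 and 27.6 in BM progenitor libraries, with Epor at 0 in all Runx2wt libraries, and 1 of 3 tested rose in Runx2ko. Cell cycle genes, 14 in number, summed to 1369.5, 2297 and 1116 in Runx2ko, 3024, 1811 and 2218 in Runx2wt and 4338, 3964 and 3878 in BM progenitor libraries, with 10 falling in Runx2ko and 3 in Runx2wt against BM progenitor cells.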

How the data were processed

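QuantSeq 3′ (reverse) libraries from 9 samples, 3 per group, which the labels call independent biological replicates, were deposited as a table of raw counts per Ensembl gene. The submitters' processing notes name GRCm38 with FastQC, STAR and DESeq2, without versions or roles; neither counter nor annotation nor strand setting is given in the sources used here. The deposited table of other values held the counts divided by 1 constant per library and served only as an alternative. Of 21159 identifiers, 21042 matched a symbol. Tests used edgeR 4.0.16 in R 4.3.3 (quasi-likelihood F-test, two-sided, TMM factors, the filterByExpr filter, group as sole term, all 9 libraries sharing the spread); CPM use the counts in tested genes and TMM factors as library size. SE is the log2 fold change divided by the root of F. limma 3.58.1 and DESeq2 1.42.0 were alternatives. A 3′ tag count does not grow with transcript length, and depth limits scarce genes such as Fads2 and Idi1. The members and the other lists were chosen with earlier results of these data known. Values per library are given for members that pass in a comparison, for Srebf1, Srebf2, Insig1, Scap, Nr1h2 and Fasn, and for members with an unadjusted p under 0.05 between Runx2ko and Runx2wt; other lists name up to 3 passing genes of at least 10 CPM with the largest change in Runx2wt against BM progenitor, or the most abundant where none passes. Mbtps1, Mbtps2 and Soat2 were named after their values were seen. No replicate pair agreed within counting noise. Gene overlaps came from the GENCODE vM21 annotation and similar 3′ ends from its transcripts (95% identity over at least 75 bases of the last 300). Some genes of the other lists are counted in them but not reported here by name.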

Additional observations from a re-analysis of the deposited data

How the results depend on the processing

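Of 19 alternatives per result, none turned the direction of a gene in a comparison where either fit passed. Members called in Runx2wt against BM progenitor cells (11) became 18 with DESeq2 and 23 with only the 2 groups compared, and 1 to 20 when 1 library was left out. In Runx2ko against BM progenitor cells (4) they became 9 with DESeq2 and 1 to 10 with 1 library left out, and in Runx2ko against Runx2wt cells (0) 1 with DESeq2 and 0 in each fit that left out 1 library. All genes called in Runx2wt against BM progenitor cells (1513) became 2390 with DESeq2 and 3679 with only the 2 groups compared, and 209 to 3256 with 1 library left out; in Runx2ko against BM progenitor cells (1924) 1262 with only the 2 groups compared, and 405 to 3311; in Runx2ko against Runx2wt cells (0) 46 with DESeq2, and 0 to 5. The causes of these moves were not tested. limma-voom split its calls into 767 higher and 706 lower in Runx2wt and 890 higher and 989 lower in Runx2ko, and did not call Abca1 in either (log2 fold changes 5.69 and 5.25, adjusted p = 0.0557 and 0.0644). Scaling by total counts moved the median over all genes in Runx2wt against BM progenitor cells to -0.09. The median of the members there was -0.71 to -0.52 with 1 library left out, at its lowest without Runx2wt replicate 1.

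The samples share only a replicate number. Deviations of same-numbered libraries correlated at -0.066 to 0.072, and those of libraries with different replicate numbers at -0.115 to 0.140. With that number as a block, 9 members and 922 genes were called in Runx2wt against BM progenitor cells, 4 and 1120 in Runx2ko against BM progenitor cells and 0 members in Runx2ko against Runx2wt cells.

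Of 108 gene and comparison pairs, 31 changed sign in at least 1 alternative, 6 in Runx2wt and 6 in Runx2ko against BM progenitor cells and 19 in Runx2ko against Runx2wt cells, none with a pass in either fit. For 20 the move was under 1 SE of the log2 fold change as reported. The other 11 are given as the range over fits that leave out 1 library. In Runx2wt against BM progenitor cells it was -0.30 (without Runx2wt replicate 1) to 0.19 for Dhcr7. In Runx2ko against BM progenitor cells it was -0.71 to 1.19 for Tm7sf2 and -0.051 to 0.52 for Srebf1, both lowest without Runx2ko replicate 3. In Runx2ko against Runx2wt cells it was -0.33 to 0.32 for Acat2 and -0.38 to 0.11 for Dhcr7, both highest without Runx2wt replicate 1. It was -0.26 to 0.38 for Fdft1 and -0.011 to 1.01 for Fads1, both lowest without Runx2ko replicate 1. It was -0.032 to 0.44 for Pmvk, -0.28 to 0.30 for Mvd, -0.31 to 0.28 for Srebf1 and -0.36 to 0.60 for Mylip, all lowest without Runx2ko replicate 3. Where a left-out library leaves 2 in a group, the fit pools the spread over groups.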

Other observations

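BM progenitor replicate 3 had the highest level of all 9 libraries for 13 of the 35 tested members, Runx2ko replicate 3 for 7 and Runx2ko replicate 1 for 6. The lowest level fell in Runx2ko replicate 1 for 8 members, in Runx2wt replicate 3 for 8 and in Runx2wt replicate 2 for 7.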
